A study of Mus musculus with 30 samples.

Results

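Txnip (thioredoxin-interacting protein), the 4 other alpha-arrestins Arrdc1, Arrdc2, Arrdc3 and Arrdc4, and the transcription factor pair Mlxip and Mlx were followed through 30 RNA sequencing libraries of mouse bone marrow stem and progenitor cells. The 7 genes were chosen by name, as alpha-arrestins and the glucose-sensing factors that control some of them, out of 46113 genes in the count tables, and all 7 passed the filter on low counts in every comparison. A library was made from 100 sorted cells of bone marrow from C57BL/6 mice, 8 to 10 weeks old. The sorted populations were CD150+ CD48- EPCR+ Lineage- cells, called haematopoietic stem cells (HSCs), and CD150+ CD48+ EPCR+ Lineage- cells, called haematopoietic progenitor cells (HPCs). In the 5-fluorouracil (5-FU) experiment, HSCs came from untreated mice (n = 4), from mice at day 6 (n = 4) and from mice at day 10 (n = 6) after this drug, which kills dividing cells. In the culture experiment, HSCs from untreated mice were sequenced after 1 day of culture (n = 4) or uncultured (n = 4). In the CD48 experiment, CD48+ HPCs (n = 4) were set against CD48- HSCs (n = 4), both from day 10 after 5-FU. The labels name neither the dose of 5-FU nor the culture medium. Nor do they say whether libraries came from single or pooled mice, so p-values measure the spread between libraries, which may in part be technical.

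Alpha-arrestins are adaptor proteins that bind membrane proteins and bring NEDD4-family ubiquitin ligases to them, which sends the bound protein into the cell for breakdown or recycling. Txnip binds and inhibits thioredoxin and lowers glucose uptake, and in mice it is known to be needed for HSCs to stay quiescent. Mlxip (MondoA) pairs with Mlx, senses glucose 6-phosphate and activates Txnip and Arrdc4 through carbohydrate response elements in their promoters. Expression is given as CPM, exon read counts scaled to a common library size. Differences are log2 fold changes with their standard error (SE) and an adjusted p from edgeR's quasi-likelihood test, with a threshold of 0.05.

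The libraries held 5208722 to 12243208 exon reads and 14158 to 15406 detected genes. Intron reads made up 60.6 to 70.8% of exon and intron reads together, and this share differed between groups. It averaged 68.5% in untreated and 61.8% in day-6 HSCs, and 70.4% in uncultured and 62.5% in cultured HSCs. The sort marker Cd48 averaged 51.5 ± 4.74 CPM (SD, n = 4) in CD48+ HPCs and 3.07 ± 1.79 CPM (n = 4) in CD48- HSCs, as labelled. All 10 HSC markers on the list used here, Procr and Slamf1 (CD150) among them, had reads in every group. Transcripts of other cells were present in some libraries. Summed CPM of 10 erythroid markers ran from 69.4 to 4702 CPM in uncultured HSCs and reached 9435 CPM in 1 of the CD48- HSC libraries, replicate 3. Summed CPM of 10 macrophage markers reached 601 CPM in day-6 replicate 1 and 1290 CPM in CD48+ HPC replicate 3. In bulk libraries, fewer cells of a type and less RNA per cell cannot be told apart.

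Txnip was by far the most abundant of the 7 transcripts. Per kilobase of exon, in untreated HSCs, Txnip had a level of 531 ± 94.0 CPM per kb (SD, n = 4), followed by Arrdc1 at 63.6 ± 7.65, Mlxip at 40.5 ± 3.27, Arrdc4 at 27.2 ± 6.53, Arrdc3 at 27.2 ± 5.27, Mlx at 9.21 ± 0.691 and Arrdc2 at 5.97 ± 1.59 CPM per kb. Mlxipl (ChREBP), the relative of Mlxip that dominates in liver, averaged at most 0.705 ± 0.413 CPM in any group, and the arrestin-domain gene Arrdc5 had next to no reads. Txnip (gene 56338) lies on mm10 chromosome 3 at 96557957 to 96561857 on the plus strand, with 9 exons and 2801 bases of exon. The whole gene lies inside Gm15441 (chromosome 3, 96555768 to 96566801, minus strand), an entry listed with 0 exons. Of its 166630 exon reads 20.1% counted as unique, and 33442 of the 33465 unique reads crossed an exon-exon junction. The protocol is not stated to keep the strand, so reads outside junctions cannot be assigned to 1 strand. Txnip results are therefore also given for junction reads. Of the Txnip intron reads, 0 counted as unique in the 30 libraries. Every Txnip intron value given below may therefore hold Gm15441 reads and cannot be assigned to Txnip alone. Reads counted for Gm15441 alone averaged 2.19 ± 0.618 CPM in day-6, 7.92 ± 3.55 in untreated, 1.39 ± 0.621 in cultured and 8.14 ± 1.85 CPM in uncultured HSCs, and Txnip fold changes were as large with junction reads as with all exon reads in all 5 comparisons.

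The other genes lie at separate loci of mm10. Arrdc4 (gene 66412) is on chromosome 7 at 68736994 to 68749238, Arrdc1 (gene 215705) on chromosome 2 at 24925352 to 24935335 and Arrdc3 (gene 105171) on chromosome 13 at 80883338 to 80896042. Arrdc2 (gene 70807) is on chromosome 8 at 70835129 to 70839720 and has a second copy on an alternate locus of the assembly. That copy held 514 of its exon reads (14.6%) and the chromosome 8 entry 3000 reads, and the entries were summed. At most 0.588% of the Arrdc2 exon reads of any library counted as unique. Its results therefore rest on reads that are not unique, without a fit on unique reads. Mlxip (gene 208104) is on chromosome 5 at 123394798 to 123457932 and Mlx (gene 21428) on chromosome 11 at 101086711 to 101092207, where it shares 67 bases with Psmc3ip. The promoters of Txnip and Arrdc4 are shown because these genes had the widest range of levels and are the known targets of Mlxip and Mlx. The sequences are the 250 bases before the RefSeq start site (GRCm38.p6), read 5′ to 3′ on the gene's strand, at chr3:96557707-96557956 on the plus strand and chr7:68749239-68749488 on the minus strand. Capitals mark matches, on either strand, to 4 motifs: the paired carbohydrate response element (CACGNG or CNCGTG, 5 bases, then CACGNG or CNCGTG), the E-box CACGTG, the CCAAT box (CCAAT or ATTGG) and the forkhead motif GTAAACA.
Txnip promoter: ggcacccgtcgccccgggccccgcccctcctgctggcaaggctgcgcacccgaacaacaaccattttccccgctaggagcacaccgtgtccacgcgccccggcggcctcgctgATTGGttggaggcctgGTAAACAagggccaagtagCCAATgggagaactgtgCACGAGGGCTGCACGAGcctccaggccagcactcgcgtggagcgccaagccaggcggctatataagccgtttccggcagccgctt
Arrdc4 promoter: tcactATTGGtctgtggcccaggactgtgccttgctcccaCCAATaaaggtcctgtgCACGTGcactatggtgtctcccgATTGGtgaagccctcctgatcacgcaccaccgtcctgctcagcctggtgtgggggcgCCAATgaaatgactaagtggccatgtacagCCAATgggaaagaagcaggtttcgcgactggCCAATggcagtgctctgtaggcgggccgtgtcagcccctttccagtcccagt

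The Txnip window held 1 paired carbohydrate response element, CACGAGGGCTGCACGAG, whose first base lies 85 bases before the start site. This element was found in 27 of 32851 promoter windows of 300 bases (250 before to 50 after the start), or 0.0822% of them. The same Txnip window held 1 GTAAACA, present in 3.65% of windows, and 2 CCAAT boxes, and at least 2 CCAAT boxes were present in 11.7% of windows. No match to the paired element was in the Arrdc4 window, which says only that these letters are not in this window. Arrdc4 had 1 CACGTG, present in 7.15% of windows, and 6 CCAAT boxes, and 6 or more CCAAT boxes were present in 0.0791% of windows. Among the other genes, Mlx had 1 CACGTG and 2 CCAAT boxes, Mlxip 2, Arrdc2 3 and Arrdc1 0 CCAAT boxes. Arrdc3 had 3 windows, of which 2 overlap and hold the same CCAAT box, and 1 held none. The motifs were chosen with these windows in view, and a match is a description of the sequence.

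**Figure D1:**
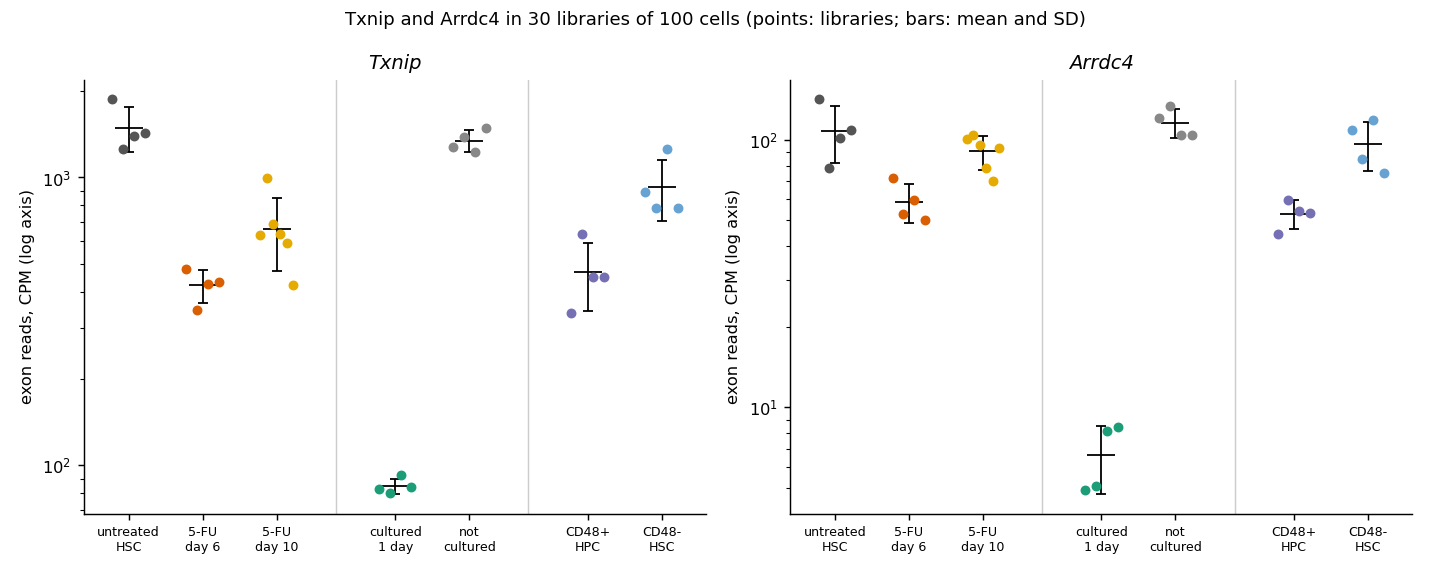
Exon reads of Txnip (left) and Arrdc4 (right) in CPM on a log axis, 1 point per library, with the mean and SD of each of 7 groups. The 4 cultured libraries lie at 80.3 to 92.3 CPM of Txnip and 4.92 to 8.43 CPM of Arrdc4, below every other library.

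Txnip and Arrdc4 ranged widely between groups and the other 5 genes less so. The highest group mean of Txnip was 17.6 times its lowest and that of Arrdc4 17.4 times its lowest, with cultured HSCs lowest for both. For the others this ratio was 2.33 for Arrdc2, 2.18 for Mlxip, 1.74 for Arrdc3, 1.5 for Arrdc1 and 1.34 for Mlx. By group mean, Txnip was ordered as untreated HSCs (1488 ± 263 CPM, n = 4), uncultured HSCs (1343 ± 118, n = 4), CD48- HSCs of day 10 (928 ± 222, n = 4), day-10 HSCs (662 ± 188, n = 6), CD48+ HPCs of day 10 (469 ± 125, n = 4), day-6 HSCs (422 ± 56.3, n = 4) and cultured HSCs (84.8 ± 5.23, n = 4). Each neighbouring pair in this order overlapped in its libraries except day-6 and cultured HSCs. Arrdc4 was ordered as uncultured, untreated, CD48-, day-10, day-6, CD48+ and cultured, and again only the last step was free of overlap. The 3 experiments share no libraries and were fitted separately, so the order across experiments carries no test.

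At day 6 after 5-FU, Txnip fell strongly, and the other 4 alpha-arrestins and Mlxip fell with it. Txnip was at 481, 345, 426 and 435 CPM in day-6 HSCs, against 1867, 1258, 1398 and 1431 CPM in untreated HSCs. The groups lay far apart, and the lowest untreated library was above the highest day-6 library. The log2 fold change was -1.82 (SE 0.20, adjusted p = 3.38e-06), or 3.53-fold lower, and 2.95% of the genes tested had a lower fold change. With junction reads alone it was -2.005 (adjusted p = 2.17e-07). Of the 7 genes, 6 were called lower and 0 higher, in a comparison where 25.7% of 12886 tested genes were called lower and 51.4% were called in either direction. The same 6 genes were lower without any overlap between the groups, against 24.6% of genes tested, and 48.5% of genes did not overlap in either direction. The median log2 fold change of the 7 was -0.72 and that of all genes tested -0.04.

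Arrdc4 was at 71.9, 52.8, 59.6 and 49.9 CPM in day-6 HSCs, against 141, 78.6, 102 and 108 CPM in untreated HSCs, a log2 fold change of -0.87 (SE 0.17, adjusted p = 0.000498). Its lowest untreated library lay just above the highest day-6 library. Arrdc3, which binds beta-adrenergic receptors and is known for its part in body fat in mice, averaged 75.1 ± 12.6 CPM in day-6 and 124 ± 24.1 CPM in untreated HSCs (SD, n = 4 each), a log2 fold change of -0.72 (adjusted p = 0.00245). Arrdc2 averaged 8.39 ± 0.709 CPM in day-6 and 14.7 ± 3.90 CPM in untreated HSCs (log2 -0.80, adjusted p = 0.00552). For Arrdc1, which drives the budding of small vesicles from the cell surface, the change was smaller, at 87.3 ± 3.6 CPM in day-6 and 112 ± 13.4 CPM in untreated HSCs (log2 -0.35, adjusted p = 0.0102). The glucose sensor Mlxip fell to 232, 245, 218 and 215 CPM in day-6 HSCs, against 357, 346, 311 and 302 CPM in untreated HSCs. Every day-6 library of Mlxip was below every untreated one (log2 -0.53, SE 0.07, adjusted p = 2.65e-05). Its partner Mlx averaged 27.1 ± 2.04 CPM in day-6 and 23.5 ± 1.76 CPM in untreated HSCs and was not called (log2 0.21, adjusted p = 0.138). With intron reads in place of exon reads, only Txnip and Arrdc3 of the 7 were called at day 6, with log2 fold changes of -1.33 (adjusted p = 0.0203) and -1.24 (adjusted p = 0.00402). The Txnip intron reads cannot be told apart from reads of Gm15441.

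Transcripts of other cells moved with the same groups. Of 10 erythroid markers, 9 were tested at day 6, of which 8 fell and 1 rose, and their summed level was 313 to 441 CPM in day-6 and 2407 to 6348 CPM in untreated HSCs. Hba-a2, Slc4a1 and Car1 were at 0 in all day-6 libraries. All 10 macrophage markers rose, with sums of 50.9 to 601 CPM in day-6 and 43.1 to 62.4 CPM in untreated HSCs, and all 4 cycling markers rose (Mki67 609 ± 27.1 CPM in day-6 and 167 ± 75.5 CPM in untreated HSCs). Granulocyte markers summed to 13.4 to 15.0 CPM in day-6 and 32.0 to 1966 CPM in untreated HSCs, where replicate 3 held the 1966 CPM. Lymphoid markers summed to 24.0 to 29.7 CPM in day-6 and 43.4 to 78.7 CPM in untreated HSCs, and of 7 tested megakaryocyte markers 4 fell and 0 rose. HSC markers summed to 2590 to 2705 CPM in day-6 and 4666 to 5469 CPM in untreated HSCs, with 4 of 10 lower and 0 higher, and Cd48 averaged 3.48 ± 1.84 CPM in day-6 and 0.428 ± 0.425 CPM in untreated HSCs. The part of all these in the Txnip values was not tested. Without day-6 replicate 1 and day-10 replicates 4 and 6 the Txnip fold change was -1.85 (adjusted p = 3.27e-06). These 3 libraries were picked after the data were seen, from earlier results that gave them transcripts of other cells or an interferon response, and interferon genes are not analysed here. On the marker sums used here, day-10 replicate 1 had the most erythroid transcripts of its group (1464 CPM) and day-10 replicate 3 the most macrophage transcripts (308 CPM), and both were kept.

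Of 6 tested genes of the thioredoxin system, 4 rose and 0 fell at day 6, with a median log2 fold change of 0.49. The counts of this and the next lists stand against 51.4% of all genes called at day 6, 25.7% in each direction. Txn1, the cytosolic thioredoxin itself, averaged 187 ± 6.80 CPM in day-6 and 54.8 ± 8.16 CPM in untreated HSCs (log2 1.77, adjusted p = 2.86e-07). Mitochondrial Txn2 and the thioredoxin reductase Txnrd1 rose by 0.48 and 0.50 on the log2 scale (adjusted p = 0.000261 and 0.000212). With intron reads none of these 3 genes was called, and the value of Txnrd1 was -0.019. Of 12 tested genes of glucose uptake and glucose 6-phosphate, 6 rose and 0 fell, with hexokinase Hk2, which makes glucose 6-phosphate, at 212 ± 28.0 CPM in day-6 and 97.2 ± 28.2 CPM in untreated HSCs (log2 1.13, adjusted p = 8.05e-05) and the isomerase Gpi1 up by 0.44 (adjusted p = 1.63e-05). Carbohydrate-responsive targets of liver were split, with 3 higher and 4 lower of 12 tested. Fasn and Acly, enzymes of fatty acid synthesis, rose (log2 0.62 and 0.37), while ketohexokinase Khk fell (log2 -0.58, adjusted p = 0.0041).

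In the network of Mlx partners and MYC-MAX proteins, 5 of 9 tested genes fell and 1 rose at day 6. Mxd4 and Mxd1, which pair with Max or Mlx and repress transcription, had log2 fold changes of -1.11 and -0.90 (adjusted p = 0.000238 and 0.00104), and Mga one of -0.45 (adjusted p = 0.000144). Of 9 genes of the glucocorticoid receptor and its targets, 7 fell and 0 rose, with a median of -1.37. Tsc22d3 (GILZ) averaged 102 ± 24.7 CPM in day-6 and 450 ± 92.1 CPM in untreated HSCs (log2 -2.14, adjusted p = 3.59e-06), and Dusp1 and Per1 had log2 fold changes of -2.41 and -1.55 (adjusted p = 1.19e-05 and 0.000101). Among 7 tested NEDD4-family ligases, Nedd4 rose (log2 0.40, adjusted p = 7.65e-05) and 2 fell, Wwp2 among them (log2 -0.49, adjusted p = 2.79e-05). Of 5 other tested arrestin-fold genes, 1 rose and 1 fell, beta-arrestin 1 (Arrb1, log2 -0.48, adjusted p = 0.00494). AMPK and AKT kinases, which phosphorylate Txnip protein and lead to its breakdown or release from the membrane, had 3 higher and 3 lower of 9 tested, with Akt1 up by 0.54 (adjusted p = 2.15e-06). With intron reads Mxd1, Mga, Fasn, Khk, Nedd4 and Akt1 were not called at day 6, and with junction reads Txn2 and Acly were not.

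**Figure D2:**
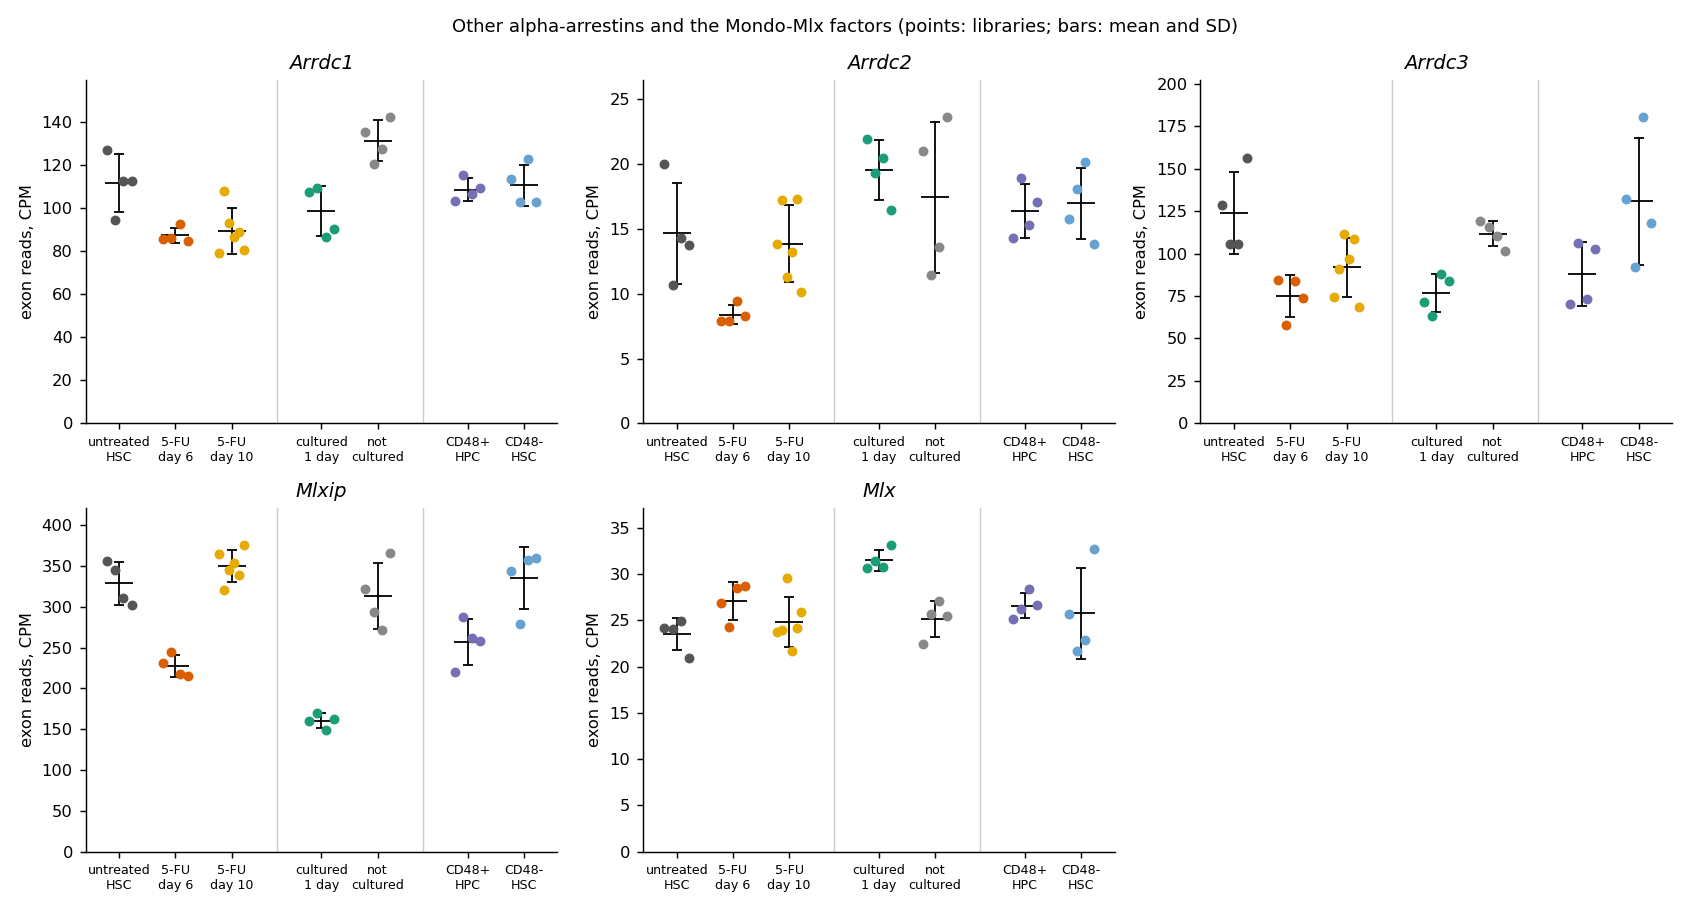
Exon reads of Arrdc1, Arrdc2, Arrdc3, Mlxip and Mlx in CPM on axes from 0, 1 point per library, with the mean and SD of each group. Mlxip averaged 227 CPM in day-6, 350 CPM in day-10 and 161 CPM in cultured HSCs, while Mlx stayed between 20.9 and 33.2 CPM in all 30 libraries.

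At day 10 after 5-FU, Txnip was still below untreated HSCs, while Mlxip, Arrdc2 and Arrdc4 were not called. Day-10 HSCs had 632, 998, 687, 637, 593 and 425 CPM of Txnip, with a median of 635 CPM, against a median of 1414 CPM in untreated HSCs. All 6 day-10 libraries were below all 4 untreated ones (log2 -1.17, SE 0.17, adjusted p = 0.000124), and 4.54% of genes tested had a lower fold change. With junction reads the value was -1.21 (adjusted p = 2.50e-05), and without day-6 replicate 1 and day-10 replicates 4 and 6 it was -1.03 (adjusted p = 0.000381). Of the 7 genes, 3 were called lower and 0 higher, against 18.1% of genes tested called lower, 19.9% called higher and 38.0% called in either direction. Of the 7, only Txnip was free of overlap, against 23.6% of genes tested (11.7% lower). Arrdc1 averaged 89.3 ± 10.5 CPM in day-10 (n = 6) and 112 ± 13.4 CPM in untreated HSCs (n = 4), a log2 fold change of -0.32 (adjusted p = 0.0144). Arrdc3 averaged 91.8 ± 17.6 CPM in day-10 and 124 ± 24.1 CPM in untreated HSCs, a log2 fold change of -0.43 (adjusted p = 0.0362). Both calls were lost without untreated replicate 1 (adjusted p = 0.0579 for Arrdc1 and 0.0768 for Arrdc3), and that of Arrdc3 also without untreated replicate 4 (0.153) and without day-10 replicates 1, 2 or 6 (0.0557 to 0.0718). Without day-6 replicate 1 and day-10 replicates 4 and 6 neither was called (adjusted p = 0.0742 for Arrdc1 and 0.103 for Arrdc3), and Arrdc1 was not called with intron reads (0.133) or junction reads (0.0644), nor Arrdc3 with intron reads (0.167). Arrdc4 averaged 90.3 ± 13.3 CPM in day-10 and 107 ± 25.8 CPM in untreated HSCs (log2 -0.25, adjusted p = 0.202), and Mlxip 350 ± 19.6 CPM in day-10 and 329 ± 26.5 CPM in untreated HSCs (log2 0.09, adjusted p = 0.304). The median log2 fold change of the 7 was -0.25 and that of all genes tested -0.0043.

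Day-10 HSCs had more Txnip, Arrdc2, Arrdc4 and Mlxip transcript than day-6 HSCs. These 4 of the 7 genes were called higher and 0 lower, in a comparison where 14.7% of genes tested were called higher, 15.9% lower and 30.6% in either direction. Mlxip was at 321 to 376 CPM in day-10 HSCs (median 349), against 215 to 245 CPM in day-6 HSCs, with a clear gap between the groups (log2 0.62, SE 0.07, adjusted p = 3.01e-05). Arrdc2 was at 10.2 to 17.3 CPM in day-10 and 7.91 to 9.42 CPM in day-6 HSCs (log2 0.72, adjusted p = 0.0130). Of the 7, these 2 were free of overlap, against 22.6% of genes tested (10.5% higher). Arrdc4 ran from 69.8 to 104 CPM in day-10 and from 49.9 to 71.9 CPM in day-6 HSCs (log2 0.62, adjusted p = 0.00757). Neither Arrdc2 nor Arrdc4 was called with intron reads (adjusted p = 0.280 and 0.634), and Arrdc2 was not called with junction reads (0.0559) or with its entries kept apart (0.0746). Txnip had a log2 fold change of 0.65 (adjusted p = 0.0130), with day-10 replicate 6 (425 CPM) inside the day-6 range. The Txnip call was lost without day-6 replicate 2 (log2 0.57, adjusted p = 0.0508), and with intron reads the value was -0.12 (adjusted p = 0.863), while junction reads gave 0.79 (adjusted p = 0.00282). The day-10 against day-6 and day-10 against untreated comparisons share the day-10 libraries.

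Markers of other cells also differed at day 10. Summed erythroid markers were 311 to 1464 CPM in day-10 and 2407 to 6348 CPM in untreated HSCs, with 5 of 9 tested lower and 1 higher. Summed macrophage markers were 121 to 308 CPM in day-10 and 43.1 to 62.4 CPM in untreated HSCs, with 5 of 10 higher and 0 lower. All 4 cycling markers rose, with sums of 655 to 1041 CPM in day-10 and 153 to 449 CPM in untreated HSCs. Sums of granulocyte markers were 38.1 to 69.3 CPM in day-10 and 32.0 to 1966 CPM in untreated HSCs, and those of lymphoid markers 20.1 to 58.1 CPM in day-10 and 43.4 to 78.7 CPM in untreated HSCs. HSC markers summed to 2339 to 3320 CPM in day-10 and 4666 to 5469 CPM in untreated HSCs, with 2 higher and 3 lower of 10, and of 7 megakaryocyte markers 1 was higher and 2 lower. Their part in the Txnip values was not tested.

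Among the other genes of the pathway at day 10, Txn1 remained above untreated HSCs at 128 ± 24.8 CPM in day-10 and 54.8 ± 8.16 CPM in untreated HSCs (log2 1.23, adjusted p = 8.26e-06), and the thioredoxin list had 2 higher and 1 lower of 6 tested, where 38.0% of all genes were called. Glucose genes had 4 higher and 0 lower of 12, with Hk2 at a log2 fold change of 1.18 (adjusted p = 7.90e-05) and Gpi1 at 0.36 (adjusted p = 0.000113). Carbohydrate-responsive targets had 1 higher and 2 lower of 12. In the Mlx and MYC-MAX list 0 rose and 2 of 9 fell, Mga among them (log2 -0.43, adjusted p = 0.00018). Of the glucocorticoid list, 5 of 9 fell and 0 rose, with Tsc22d3 at -1.14 (adjusted p = 0.000502) and Klf9 at -0.93 (adjusted p = 0.000323). The ligases had 2 lower and 0 higher of 7, with Wwp2 at -0.41 (adjusted p = 0.000141), the other arrestin-fold genes 1 higher and 0 lower of 5, and the kinases 2 higher and 3 lower of 9, with the AMPK subunit Prkaa2 at -1.01 (adjusted p = 0.00133). Txn1, Gpi1 and Wwp2 were not called with intron reads at day 10, nor Prkaa2 with junction reads.

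Against day 6, Mxd4 averaged 24.3 ± 4.96 CPM in day-10 and 12.2 ± 2.82 CPM in day-6 HSCs (log2 1.00, adjusted p = 0.00105), and Mxd1 rose by 0.93 (adjusted p = 0.00132). In that network 3 of 9 genes rose and 1 fell, where 30.6% of all genes were called. Of the glucocorticoid list, 5 of 9 rose and 0 fell, with Tsc22d3 at 1.00 (adjusted p = 0.00299) and Dusp1 at 1.26 (adjusted p = 0.00354). Thioredoxin genes had 4 lower and 0 higher of 6, with Txn1 at -0.54 (adjusted p = 0.00376; 0.49 and not called with intron reads) and Txn2 at -0.34 (adjusted p = 0.00414). Fasn had a log2 fold change of -0.67 (adjusted p = 0.000176) and Nedd4 one of -0.57 (adjusted p = 1.44e-05). Glucose genes had 1 higher and 2 lower of 12, carbohydrate-responsive targets 1 and 3 of 12, the ligases 0 and 2 of 7, the kinases 1 and 2 of 9 and the other arrestin-fold genes 1 and 0 of 5. Tsc22d3 and Txn2 were not called with intron reads, nor Mxd4 and Txn2 with junction reads.

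After 1 day of culture, Txnip and Arrdc4 fell by more than any other of the 7 genes, Mlxip, Arrdc3 and Arrdc1 fell less, and Mlx rose. Txnip was at 82.6, 80.3, 92.3 and 83.9 CPM in cultured HSCs, against 1278, 1382, 1223 and 1491 CPM in uncultured HSCs. The cultured libraries lay within a narrow band far below all uncultured ones, from 552 to 722 reads in cultured and 7178 to 9381 reads in uncultured HSCs. The log2 fold change was -3.96 (SE 0.08, adjusted p = 1.44e-11), or 15.6-fold lower, and 0.476% of genes tested had a lower fold change. Junction reads gave -4.22 and intron reads -2.82 (adjusted p = 2.05e-17 and 0.000128). Of the 7 genes, 5 were called lower and 1 higher, in a comparison where 33.8% of 12386 tested genes were called lower, 33.8% higher and 67.6% in either direction. Of the 7, all but Arrdc2 were free of overlap, 5 lower and 1 higher, against 62.0% of genes tested (31.1% lower and 30.9% higher). The median log2 fold change of the 7 was -0.52 and that of all genes tested -0.01.

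Arrdc4, which like Txnip lowers glucose uptake, was at 4.92, 5.09, 8.13 and 8.43 CPM in cultured HSCs, against 121, 134, 104 and 104 CPM in uncultured HSCs. All cultured libraries were far below all uncultured ones, on 35 to 61 reads in cultured and 656 to 901 reads in uncultured HSCs. The log2 fold change was -4.11 (SE 0.17, adjusted p = 1.81e-09), or 17.3-fold lower. Mlxip was at 160, 170, 149 and 163 CPM in cultured HSCs, against 321, 294, 272 and 366 CPM in uncultured HSCs, with no overlap (log2 -0.94, SE 0.09, adjusted p = 1.27e-06). With intron reads Mlxip was lower as well (log2 -0.80, adjusted p = 0.00028). Mlx, by contrast, was at 30.6, 31.4, 30.8 and 33.2 CPM in cultured HSCs, against 22.4, 25.6, 27.1 and 25.4 CPM in uncultured HSCs. Every cultured library of Mlx was above every uncultured one (log2 0.35, adjusted p = 0.0121), though junction reads alone did not give a call (log2 0.40, adjusted p = 0.134).

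Arrdc3 averaged 76.7 ± 11.3 CPM in cultured and 112 ± 7.49 CPM in uncultured HSCs (SD, n = 4 each), a log2 fold change of -0.52 (adjusted p = 0.000715). Arrdc1 averaged 98.4 ± 11.6 CPM in cultured and 131 ± 9.63 CPM in uncultured HSCs, a log2 fold change of -0.39 (adjusted p = 0.00254). With intron reads neither was called (log2 -0.10 for Arrdc3 and 0.066 for Arrdc1). Arrdc2 was at 19.6 ± 2.34 CPM in cultured and 17.4 ± 5.84 CPM in uncultured HSCs and was not called with exon reads (log2 0.20, adjusted p = 0.439), while its intron reads were higher (log2 1.23, adjusted p = 0.00268).

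All 4 cycling markers rose with culture, with summed levels of 1258 to 1368 CPM in cultured and 151 to 505 CPM in uncultured HSCs. Summed erythroid markers were 475 to 649 CPM in cultured and 69.4 to 4702 CPM in uncultured HSCs, with Hba-a2, Slc4a1 and Car1 at 0 in all cultured libraries. Of 5 tested erythroid markers 0 rose and 3 fell. Granulocyte markers summed to 10.1 to 15.7 CPM in cultured and 80.6 to 2254 CPM in uncultured HSCs. Macrophage markers summed to 27.8 to 35.2 CPM in cultured and 40.04 to 51.6 CPM in uncultured HSCs, with Adgre1, C1qa, C1qb, Cd5l and Vcam1 at 0 in all cultured libraries. Of 7 tested macrophage markers 1 rose and 4 fell. Txnip was at 1382 and 1491 CPM in the uncultured libraries with 69.4 and 74.0 CPM of erythroid markers, and at 1278 and 1223 CPM in those with 3059 and 4702 CPM. Lymphoid markers summed to 10.5 to 14.6 CPM in cultured and 24.2 to 85.3 CPM in uncultured HSCs, and megakaryocyte markers to 384 to 483 CPM in cultured and 548 to 1373 CPM in uncultured HSCs. HSC markers summed to 2369 to 2586 CPM in cultured and 4274 to 4659 CPM in uncultured HSCs, with 2 higher and 8 lower of 10. The part of these transcripts in the Txnip values was not tested.

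Thioredoxin genes had 5 higher and 0 lower of 6 tested after culture, with a median of 0.85 on the log2 scale, where 67.6% of all genes were called. Txn1 averaged 182 ± 6.04 CPM in cultured and 47.5 ± 4.81 CPM in uncultured HSCs (log2 1.96, adjusted p = 2.07e-09), and Txnrd1 and Txn2 rose by 1.31 and 0.74. Carbohydrate-responsive targets were split, with 6 higher and 4 lower of 11 tested. The risers included Scd1, Fasn and Acly, which make fatty acids and are also driven by sterol and insulin signalling. Scd1 averaged 571 ± 24.9 CPM in cultured and 6.75 ± 2.74 CPM in uncultured HSCs (log2 6.42, adjusted p = 3.72e-10), Fasn had a log2 fold change of 2.32 (adjusted p = 1.35e-08) and Acly one of 2.06 (adjusted p = 6.39e-10). Glucose genes had 8 higher and 3 lower of 12, with Gpi1 at 0.40 (adjusted p = 0.000156; 0.15 and not called with junction reads) and hexokinase Hk3 at -1.81 (adjusted p = 1.58e-06).

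Of the Mlx and MYC-MAX network, 1 of 9 tested genes rose with culture and 4 fell. Mxd4 averaged 5.11 ± 1.45 CPM in cultured and 28.6 ± 1.29 CPM in uncultured HSCs (log2 -2.45, adjusted p = 2.7e-07), Mxd1 had a log2 fold change of -0.98 (adjusted p = 4.56e-06) and Mxd3, a relative expressed in dividing cells, one of 1.70 (adjusted p = 2.08e-05). Of the 9 glucocorticoid genes 8 fell and 1 rose, with a median of -1.59. Tsc22d3 averaged 48.7 ± 9.80 CPM in cultured and 501 ± 109 CPM in uncultured HSCs (log2 -3.34, adjusted p = 6.17e-09), and Klf9 and Per1 had log2 fold changes of -2.42 and -2.58. Other arrestin-fold genes had 2 higher and 3 lower of 5, with Arrb1 at -0.77 (adjusted p = 9.24e-07). The ligases had 1 higher and 2 lower of 7, and the kinases 2 higher and 3 lower of 9, with Akt1 at 1.06 (adjusted p = 1.68e-08).

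**Figure D3:**
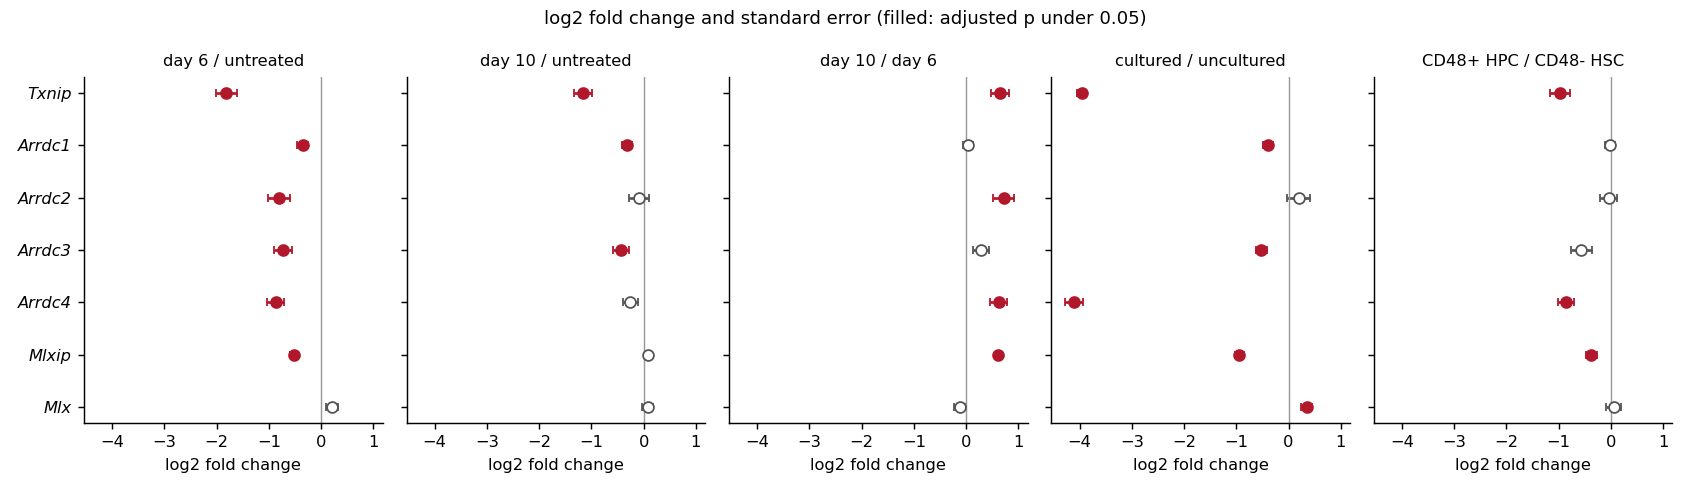
Log2 fold changes of the 7 genes in 5 comparisons, with their SE, from the edgeR fits. Culture stands out for Txnip (-3.96) and Arrdc4 (-4.11), while Mlx lies between -0.13 and 0.35 in all 5.

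At day 10 after 5-FU, CD48+ HPCs had less Txnip, Arrdc4 and Mlxip transcript than CD48- HSCs. Txnip was at 337, 638, 452 and 451 CPM in CD48+ HPCs, against 887, 785, 1254 and 786 CPM in CD48- HSCs. The highest HPC library lay below the lowest HSC library (log2 -0.98, SE 0.19, adjusted p = 0.00441), and 5.17% of genes tested had a lower fold change. Of the 7 genes, 3 were called lower and 0 higher, in a comparison where 12.5% of 12719 tested genes were called lower, 14.0% higher and 26.5% in either direction. Txnip and Arrdc4 were the 2 genes without overlap, against 27.1% of genes tested (13.6% lower). With junction reads the Txnip value was -1.05 (adjusted p = 0.00105), with intron reads -0.69 (adjusted p = 0.197), and without CD48- HSC replicate 3, the library with the most erythroid transcripts, -0.79 (adjusted p = 0.00951).

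Arrdc4 was at 44.3, 59.7, 54.3 and 53.3 CPM in CD48+ HPCs, against 109, 84.6, 118 and 75.1 CPM in CD48- HSCs, with all HPC libraries lower (log2 -0.86, SE 0.15, adjusted p = 0.00219). Mlxip averaged 257 ± 28.0 CPM in CD48+ HPCs and 335 ± 38.2 CPM in CD48- HSCs (SD, n = 4 each), a log2 fold change of -0.38 (adjusted p = 0.0259). This call was lost when any of 5 libraries was left out, CD48- HSC replicate 1, 3 or 4 or CD48+ HPC replicate 1 or 4 (adjusted p = 0.0566 to 0.0767). The Mlxip call was also lost with intron reads (log2 -0.20, adjusted p = 0.375) and with the replicate numbers as a block (0.0595). Arrdc3 averaged 88.1 ± 19.0 CPM in CD48+ HPCs and 131 ± 37.3 CPM in CD48- HSCs and just missed the threshold (log2 -0.56, adjusted p = 0.0568), but was called by DESeq2 (adjusted p = 0.0225), with junction reads (0.0279) and without CD48- HSC replicate 2 (0.0189) or CD48+ HPC replicate 2 (0.0479). With intron reads its log2 fold change was -0.017 (adjusted p = 0.977). Arrdc1, Arrdc2 and Mlx had log2 fold changes of -0.02, -0.05 and 0.06 (adjusted p = 0.898, 0.868 and 0.810). The median log2 fold change of the 7 was -0.38 and that of all genes tested -0.01.

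The 4 cycling markers rose in CD48+ HPCs, with sums of 1238 to 1345 CPM in CD48+ HPCs and 416 to 738 CPM in CD48- HSCs. Of 10 macrophage markers 7 rose, with sums of 181 to 1290 CPM in CD48+ HPCs and 85.2 to 358 CPM in CD48- HSCs, which overlap. Erythroid sums overlapped as well, at 342 to 429 CPM in CD48+ HPCs and 252 to 9435 CPM in CD48- HSCs. Of 6 tested erythroid markers 0 rose and 2 fell. Sums of cycling and HSC markers did not overlap. Nor did those of megakaryocyte markers (245 to 301 CPM in CD48+ HPCs and 822 to 1145 CPM in CD48- HSCs). Of 7 tested megakaryocyte markers 1 rose and 2 fell. Lymphoid sums (136 to 170 CPM in CD48+ HPCs and 32.4 to 40.1 CPM in CD48- HSCs) were also free of overlap. So were granulocyte sums (124 to 463 CPM in CD48+ HPCs and 40.9 to 105 CPM in CD48- HSCs). Of 4 tested granulocyte markers 3 rose and 0 fell. HSC markers summed to 1774 to 2142 CPM in CD48+ HPCs and 3055 to 3669 CPM in CD48- HSCs, with 9 of 10 lower. The part of these in the Txnip values was not tested. Among the pathway lists, where 26.5% of all genes were called, thioredoxin genes had 3 higher and 0 lower of 6, with Txn2 at 0.41 (adjusted p = 0.00747) and Txn1 at 0.53 (adjusted p = 0.0259), a call lost when any of 5 libraries was left out (CD48- HSC replicate 1, 3 or 4, CD48+ HPC replicate 1 or 4). With intron reads Txn1, Txn2, Myc and Slc2a3 were not called, nor was Txn2 with junction reads. Glucose genes had 3 higher and 1 lower of 12, the transporter Slc2a3 (GLUT3) at -0.59 (adjusted p = 0.00168). In the MYC-MAX network 1 rose and 2 fell of 9, with Myc at 233 ± 42.7 CPM in CD48+ HPCs and 94.2 ± 19.8 CPM in CD48- HSCs (log2 1.31, adjusted p = 0.000361) and Mycn at -0.75 (adjusted p = 0.00186). Glucocorticoid genes had 1 higher and 4 lower of 9, with Tsc22d3 at -0.90 (adjusted p = 0.00361), the kinases 1 higher and 3 lower of 9, carbohydrate-responsive targets 1 higher and 1 lower of 12, the other arrestin-fold genes 1 higher and 0 lower of 5, and the ligases 0 of 7 in either direction.

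The culture and 5-FU effects were compared in 1 fit of all 30 libraries. Against the day-6 effect, 4 of the 7 genes were called, 3 with a lower culture effect (Txnip, Arrdc4 and Mlxip) and 1 with a higher one (Arrdc2), where 8.77% of 13468 genes tested were called lower, 6.36% higher and 15.1% in either direction. Against the day-10 effect, 3 of the 7 were called, all lower (Txnip, Arrdc4 and Mlxip), where 20.6% of genes were called lower, 20% higher and 40.6% in either direction. The largest difference was that of Arrdc4 against day 10, at -3.88 on the log2 scale (SE 0.26, adjusted p = 5.71e-12).

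**Figure D4:**
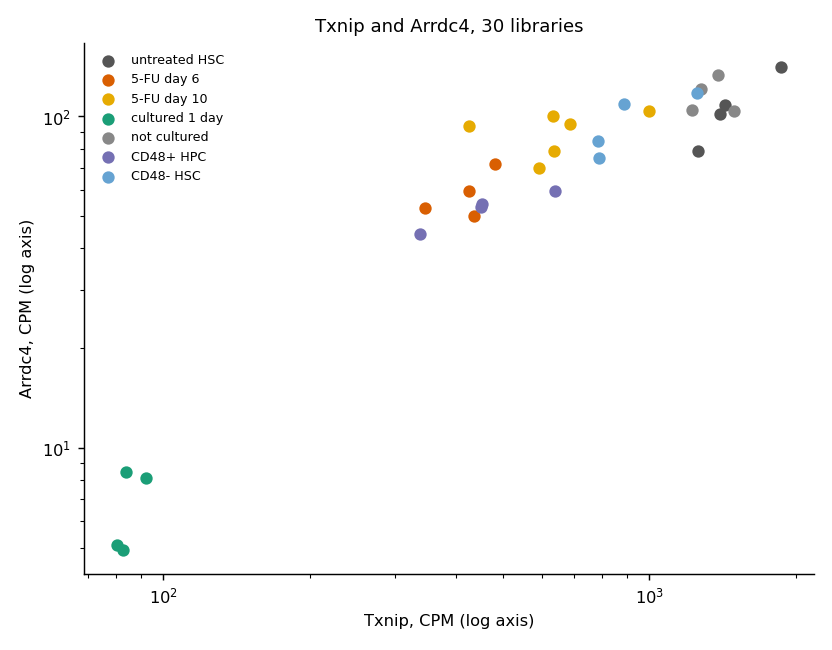
Txnip against Arrdc4, both in CPM on log axes, 1 point per library, coloured by group. The 4 cultured libraries form a separate cluster at the lower left, and Txnip is on average 7.27 times Arrdc4 in day-6 HSCs and 14.0 times Arrdc4 in untreated HSCs.

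Txnip and Arrdc4 did not fall in equal measure in every setting. The ratio of Txnip to Arrdc4 CPM averaged 14.0 ± 1.33 in untreated HSCs (n = 4), 7.27 ± 0.994 in day-6 HSCs (n = 4) and 7.38 ± 1.78 in day-10 HSCs (n = 6). It was 13.5 ± 3.33 in cultured and 11.7 ± 1.81 in uncultured HSCs, and 8.77 ± 1.33 in CD48+ HPCs and 9.63 ± 1.16 in CD48- HSCs (n = 4 each). Day-6 and untreated HSCs thus lay well apart in this ratio, while cultured and uncultured HSCs differed by less than the SD of the cultured libraries.

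Genes were ranked by their Pearson correlation of log2 CPM with Txnip over the 30 libraries. The ranking held 6461 genes with a mean log2 CPM of at least 5, and predicted genes were left out. Arrdc2 and Mlx lay below that level. The genes that followed Txnip most closely were Adck3 (coenzyme Q synthesis, r = 0.981), Hoxa3 (a homeobox factor, 0.974), Chst15 (a chondroitin sulfotransferase, 0.974), Zfp521 (a zinc finger factor, 0.968), Gabbr1 (a GABA-B receptor subunit, 0.967) and Ikbke (a kinase, 0.966). The cultured libraries form a cluster of their own, and over the other 26 libraries r was 0.898 to 0.960 for these 6 genes. Arrdc4 ranked 24 (r = 0.945, and 0.851 without the cultured libraries), Mlxip 386 (0.851 and 0.564), Arrdc3 1211 (0.668 and 0.757) and Arrdc1 1880 (0.467 and 0.711). These correlations describe libraries that share groups and experiments. Adck3 averaged 13.6 CPM in cultured and 172 CPM in uncultured HSCs, 52.3 CPM in day-6 and 217 CPM in untreated HSCs, and 63.5 CPM in CD48+ HPCs and 131 CPM in CD48- HSCs.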

How the data were processed

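RNA sequencing counts of 30 libraries in 7 groups were used. Each deposited file gives the counts of total and unique exon reads, exon-exon junction reads and intron reads for 48737 entries. The build is mm10, per the submitters' processing notes, and no source used here names the aligner or counter. Entries were summed by gene ID (46113 genes, 1931 with more than 1 entry). Total exon reads were filtered with filterByExpr, scaled by TMM and fitted by edgeR 4.0.16's quasi-likelihood test in R 4.3.3, 1 fit per experiment, with Benjamini-Hochberg adjustment over all genes tested. Differences between the culture and 5-FU effects came from 1 fit of all 30 libraries (13468 genes). Printed CPM use TMM factors over all 30 libraries. Replicates of a group differed by more than counting noise (chi-square per degree of freedom 2.46 to 45.7), so none is a copy of another. Each library was treated as 1 sample, although the labels do not say whether libraries came from separate mice. The fit was tested on simulated data. Pathway genes named are up to 3 called genes of each list with the smallest p in a comparison; not all of these are named. The genes and lists were chosen with earlier results of these data known. Alternatives were DESeq2 1.42.0, RLE size factors, no filter, a replicate block, unique, intron or junction reads, other sets of libraries in the fit, and leaving out each library. Sequences are from RefSeq (GRCm38.p6), and 7 of 7 genes matched.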

Additional observations from a re-analysis of the deposited data

Results flagged for a closer look

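Culture and 5-FU moved some of the 7 genes by different amounts, tested as the difference between the culture effect and the 5-FU effect in 1 edgeR quasi-likelihood fit of all 30 libraries, in which 15.1% of genes were called for culture against day 6 and 40.6% for culture against day 10. The culture effect on Txnip was lower than the day-6 effect by a log2 difference of -2.17 (SE 0.27, adjusted p = 1.29e-06) and than the day-10 effect by -2.82 (adjusted p = 3.10e-09). For Arrdc4 the differences were -3.26 (adjusted p = 6.08e-10) against day 6 and -3.88 (adjusted p = 5.71e-12) against day 10. For Mlxip they were -0.43 (adjusted p = 0.0225) against day 6 and -1.05 (adjusted p = 1.76e-07) against day 10. For Arrdc2 the difference from day 6 was 0.98 (adjusted p = 0.0254). With intron reads neither Txnip difference was called (-1.46, adjusted p = 0.111 against day 6 and -1.34, adjusted p = 0.0687 against day 10). Those intron reads cannot be told apart from reads of Gm15441. The Mlxip call against day 6 was lost with intron reads (adjusted p = 0.340) and junction reads (0.144), and the Arrdc2 call with junction reads (0.304). The Mlxip call was also lost without day-6 replicate 2, uncultured replicate 4 or cultured replicate 3 (adjusted p = 0.0533 to 0.0698), and the Arrdc2 call without untreated replicate 1 or uncultured replicate 2 or 3 (0.0516 to 0.0811). The culture and 5-FU experiments have their own control libraries. No library was called an outlier in any of 49 outlier tests of the 7 genes. With only 4 to 6 libraries a group such tests have little power, so they cannot show that no library stands apart.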

How the results depend on the processing

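Of 35 fold changes of the 7 genes in 5 comparisons, 12 kept their direction and call under every alternative, among them Txnip at day 6 (-2.005 to -1.33), day 10 (-1.44 to -1.001) and culture (-4.22 to -2.82). Intron reads called 4063 genes at day 6 (6622 with exon reads), 2815 at day 10 (4893), 2542 for day 10 against day 6 (3949) and 1755 for CD48 (3373), and 2, 1, 1 and 1 of the 7. Junction reads called 4141, 2605, 2072 and 1777 genes in these comparisons, 5517 for culture (8369), and 847 (2037) and 2988 (5469) for the culture minus day-6 and day-10 effects. With intron reads Txnip was -0.12 for day 10 against day 6, -0.69 for CD48, and -1.46 and -1.34 for culture minus day 6 and day 10 (adjusted p = 0.111 and 0.0687). None of these intron reads was unique to Txnip, so they may come from Gm15441. The replicate numbers are not stated to pair the libraries. Deviations of same-numbered libraries from their group means correlated at -0.194 to 0.135, which cannot show that the libraries are unpaired. With the replicate numbers as a block, 1 of the 7 genes was called at day 10, as without day-6 replicate 1 and day-10 replicates 4 and 6. Signs turned with intron reads for Arrdc1 in day 10 against day 6 (-0.12), culture (0.066), CD48 (0.0399) and culture minus day 6 (0.23) and day 10 (0.37), for Arrdc3 in culture minus day 10 (0.45), for Txnrd1 at day 6 (-0.019) and for Txn1 in day 10 against day 6 (0.49). With junction reads they turned for Mlxip at day 10 (-0.0079), Mlx in day 10 against day 6 (0.058) and CD48 (-0.21) and Arrdc1 in CD48 (0.0395), without a filter for Arrdc1 in CD48 (0.0087), and without those 3 libraries for Arrdc2 at day 10 (0.032). With 1 library left out, 1 to 3 of the 7 were called at day 10 (1 without untreated replicate 1) and 2139 to 3496 genes for CD48 (2139 without CD48+ HPC replicate 1). Left-out ranges were 0.51 to 0.72 for Txnip and -0.017 to 0.063 for Arrdc1 in day 10 against day 6, -0.21 to 0.10 for Arrdc2 at day 10, -0.0196 to 0.19 for Mlx, -0.054 to 0.042 for Arrdc1 and -0.13 to 0.053 for Arrdc2 in CD48, and -0.15 to 0.014 for Arrdc1 in culture minus day 6. The cause of these changes was not tested. Low read numbers limit Arrdc2, with 54 to 211 reads a library, and Arrdc4 in cultured HSCs, with 35 to 61.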
